A study of Mus musculus with 9 samples.

Results

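Interferon-stimulated genes were followed in invariant natural killer T (iNKT) cells of the mouse thymus with and without Utx, the histone H3 lysine 27 demethylase encoded by the X-linked gene Kdm6a. The set was a list of 40 genes, and a gene was used when a probe set of the array was annotated to it alone, taking the probe set of highest mean level. This gave 38 genes of the 18193 on the array, and all 38 passed the filter on low values that left 14524 genes for testing. Isg15, which encodes the ubiquitin-like protein ISG15, has a probe set shared with a second gene, and Ifi44 had no probe set of its own in the annotation, so neither has a value. The arrays carried RNA of thymic iNKT cells sorted from sex- and age-matched animals of 8 to 12 weeks, 5 labelled Utx wildtype (WT1 to WT5) and 4 labelled Utx knock out (KO1 to KO4). WT1 and KO1 formed batch 1, WT2 and KO2 to KO4 batch 2, and WT3 to WT5 batch 3, per the sample titles. Values by array are given below in this numerical order. The titles call the arrays biological replicates and do not say whether each came from 1 animal, so the p-values measure the spread between these samples. The sources used here do not give strain, sex, the sorting gate or the way in which Utx was removed.

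Interferons signal to neighbouring cells through surface receptors. Type I interferons bind the IFNAR receptor, whose JAK1 and TYK2 kinases activate a complex of STAT proteins with IRF9, and this complex binds the interferon-stimulated response element in the promoters of antiviral genes. Interferon gamma, which iNKT cells themselves make in large amounts, acts through the IFNGR receptor and a second promoter element, the gamma-activated site. The induced proteins sense viral RNA and DNA, block viral replication, raise antigen presentation and damp the signal again. In the thymus, epithelial and dendritic cells make interferon without infection, so that thymocytes carry a basal level of these transcripts.

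The arrays were similar in median level (5.97 to 6.09, log2), while interquartile ranges were 3.45 to 3.84 on wildtype and 3.80 to 4.29 on knockout arrays. The 12 measured markers of iNKT cells all lay above the filter level, with a mean of 11.16 to 11.22 (log2) in wildtype and 10.82 to 10.995 in knockout samples. Zbtb16, which encodes the lineage factor PLZF, differed by -0.22 (adjusted p = 0.51 by limma). Kdm6a itself read 9.79 to 10.15 in wildtype and 9.62 to 10.07 in knockout samples on its probe set of highest level, and its 4 probe sets had differences of -0.46 to 0.52 (log2), none of them past the threshold (adjusted p 0.129 to 0.977 by limma). The labels do not name the deleted part, and a probe set outside it would not test them. Precision is limited by how few arrays there are.

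The deposited values of the arrays were not free of each other. For each gene, the deviation of an array from the mean of its own genotype was taken. Across the 14524 genes, which are not independent, these deviations correlated at r = -0.991 between WT1 and WT2, at -0.922 between WT1 and KO1 and at 0.914 between WT2 and KO1. The mean of the WT1 and WT2 deviations had an SD of 0.0179 over genes (log2), against 0.0933 for the mean of WT3 and WT4. For the mean of WT3 to WT5 it was 0.0119, which goes with the first value, as the deviations of all 5 wildtype arrays cancel. The arrays of batch 3 are thus bound together as well. Values from which batch means have been taken out while genotype is kept have this form by construction. The sources used here do not say whether that was done. If it was, the SDs within a genotype given below understate the spread between samples, and groups without overlap are easier to reach. A high WT1, a low WT2 and a low KO1 in the same gene are therefore 1 observation and not 3.

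Most of the interferon-stimulated genes had lower mean values in knockout cells, and 4 genes passed the test. The 3 antigen processing genes of the set lay near their wildtype level in the fit over both batches (median -0.39 within batch 1 and 0.15 within batch 2). Of the 38 genes, 32 had a negative and 6 a positive difference, with a median of -0.39 (log2), where the median of all genes tested was 0.11 and 40.7% of them had a negative difference. By limma with batch as a factor and an adjusted p under 0.05 (Benjamini-Hochberg, over all genes), 4 fell and 0 rose: Usp18, Mx1, Rsad2 and Xaf1. At an unadjusted p under 0.05, 12 were lower (31.6%, against 10.7% of all genes tested) and 1 higher (against 2909 of 14524 genes). Over all genes tested 11.3% passed, 7.88% higher and 3.37% lower, so the 10.5% of members called lower stood above the share for that direction and the total share did not. Under another quantile normalization the lower calls were 5.14% of all genes, of 12.3% called in all. The median difference kept its sign in the 12 other settings (-0.53 to -0.31) and in the 9 fits that each left out 1 array (-0.86 to -0.05). Its size did not hold. The -0.05 came without WT1 or KO1, where batch 2 alone gives the difference. There 20 of 38 genes (52.6%) were lower, against 36.6% of all genes tested. The -0.86 came without WT2, where the difference is KO1 minus WT1. The count of calls did not keep its size and ran from 0 to 28 over the other settings and from 0 to 8 when 1 array was left out. It was 0 without WT1 or KO1 (7 at an unadjusted p under 0.05), where 3.97% of all genes were called lower, a share no smaller than with all arrays. It was 2 without WT3 and 1 without WT4, WT5 or KO4, where 1.80% to 2.03% of all genes were called lower. Without KO2 it was 8, Oasl2 higher and the rest lower (3.76% of all genes lower). Without KO3 it was 4, of which 3 were among the 4 named above (1.71% of all genes lower). Without WT2 only batch 1 held both genotypes, so each difference was KO1 minus WT1, 1 array against 1. Each of the 4 calls also ended on batches 1 and 2 only and with array weights (adjusted p 0.0650 to 0.147 by limma).

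**Figure D1:**
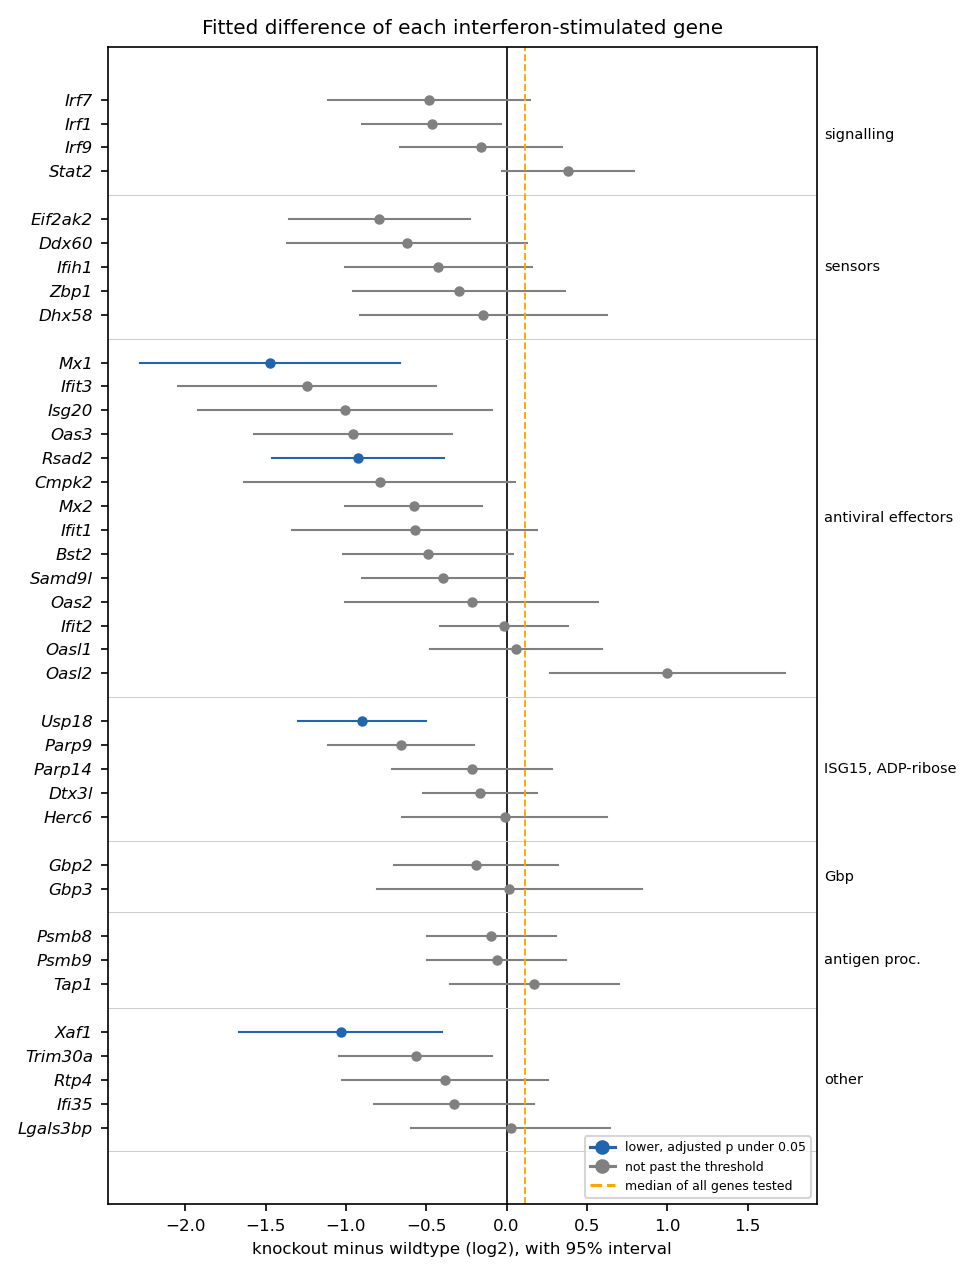
Fitted knockout minus wildtype difference (log2, horizontal axis) of each of the 38 interferon-stimulated genes, grouped by role, with 95% intervals from limma on 5 wildtype and 4 knockout arrays. Blue marks the 4 genes past the adjusted threshold, all lower, and the dashed line is the median of all genes tested (0.11). Oasl2, at 0.9997, stands apart on the positive side.

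Usp18 encodes the protease that removes ISG15 from proteins and blocks the IFNAR receptor, and it had the smallest p of the set. It read 9.40, 9.24, 9.22, 9.59 and 9.29 (log2) on the wildtype arrays and 8.40, 8.51, 8.48 and 8.24 on the knockout arrays. All knockout values lay below all wildtype values, and the arrays of each genotype were close together, within the limit on spread stated above. The wildtype mean was 9.35 ± 0.15 (SD, n = 5) and the knockout mean 8.41 ± 0.12 (SD, n = 4). The fitted fall was 1.87-fold, with a log2 difference of -0.90 (SE 0.17, adjusted p = 0.0167 by limma). The difference was -1.0 within batch 1 and -0.84 within batch 2. The call ended without WT1 or KO1 (-0.84, adjusted p = 0.0527 by limma) and without WT2 (-1.0, adjusted p = 0.0832 by limma).

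Mx1, a dynamin-like GTPase that blocks influenza viruses and is defective in many inbred laboratory strains, had the largest fall. It read 9.48, 9.07, 9.75, 8.97 and 9.25 on the wildtype arrays and 7.51, 8.13, 8.35 and 7.29 on the knockout arrays. The groups did not overlap, though the SD was 0.50 among knockout and 0.32 among wildtype arrays. The fall was 2.78-fold (log2 difference -1.47, SE 0.35, adjusted p = 0.035 by limma), with -1.97 in batch 1 and -1.14 in batch 2. The call ended without WT1, WT2, WT4, WT5, KO1 or KO4 (-1.97 to -1.14, adjusted p 0.0511 to 0.112 by limma). Its relative Mx2, which blocks other viruses, read 5.50 to 5.92 in wildtype and 4.95 to 5.31 in knockout cells, a difference of -0.58 (adjusted p = 0.08 by limma) at levels under the median of each array.

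Rsad2 encodes viperin, an enzyme that makes a chain-terminating nucleotide against viral polymerases. It read 10.34, 9.91, 10.11, 10.12 and 10.31 on the wildtype arrays and 8.90, 9.37, 9.58 and 9.05 on the knockout arrays, again without overlap. The fall was 1.90-fold (log2 difference -0.93, SE 0.23, adjusted p = 0.0407 by limma), with -1.44 in batch 1 and -0.58 in batch 2. The call ended without WT1, WT3, WT4, WT5, KO1 or KO4 (-0.93 to -0.58, adjusted p 0.0684 to 0.144 by limma). It also ended with the mean of its probe sets (-0.83, adjusted p = 0.055 by limma) and with arrays centred on their median (-0.89, adjusted p = 0.0502 by limma). The other probe sets of Rsad2 had -0.39 and -1.16 (adjusted p = 0.302 and 0.0551 in limma's fit to every probe set). In that fit the probe set used did not pass either (adjusted p = 0.053 by limma). Cmpk2, a nucleotide kinase gene next to Rsad2, had -0.79 on the probe set used (adjusted p = 0.185 by limma). Its knockout arrays read 6.31, 6.27, 7.40 and 6.20, KO3 standing in the wildtype range of 7.01 to 7.69.

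Xaf1, a gene of apoptosis induced by interferon, read 10.52, 9.97, 9.93, 10.56 and 10.38 on the wildtype arrays and 8.97, 9.48, 8.94 and 9.44 on the knockout arrays. It fell 2.05-fold (log2 difference -1.03, SE 0.28, adjusted p = 0.0472 by limma), with -1.55 in batch 1 and -0.69 in batch 2. This call was the least stable of the 4, ending when any array except KO2 was left out (-1.55 to -0.69, adjusted p 0.0534 to 0.166 by limma). It also ended with no filter (adjusted p = 0.0517 by limma), with centred arrays (adjusted p = 0.0582 by limma) and with the mean of its probe sets (-0.56, adjusted p = 0.336 by limma). A second probe set of Xaf1 had a difference of -0.08 (adjusted p = 0.955 in limma's fit to every probe set). The probe set used did not pass in that fit either (adjusted p = 0.0599 by limma).

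Beside these 4 genes, 8 more had all knockout arrays below all wildtype arrays without passing the test: Ifit3, Irf1, Mx2, Oas3, Trim30a, Parp9, Bst2 and Eif2ak2. The 12 genes without overlap on the low side were 31.6% of the set, where 12.7% of all genes tested had such an order. On the high side it was 1 gene, Oasl2, where 22.2% of all genes tested had knockout arrays above all wildtype arrays. Ifit3, which binds viral RNA together with its relative Ifit1, read 10.91 to 11.55 in wildtype and 9.60, 10.65, 10.26 and 9.51 in KO1 to KO4 (log2 difference -1.24, SE 0.35, adjusted p = 0.0564 by limma). Oas3, which makes the second messenger of RNase L, read 10.05 to 10.74 in wildtype and 9.07 to 9.80 in knockout cells (-0.96, SE 0.27, adjusted p = 0.0563 by limma). Of the others, Bst2, or tetherin, which holds budding virions at the cell surface, had -0.49 (adjusted p = 0.188 by limma) and Trim30a, a gene of the tripartite motif family, had -0.57 (adjusted p = 0.11 by limma). Ifit3 and Oas3 missed the threshold narrowly and passed it under another quantile normalization of the arrays.

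**Figure D2:**
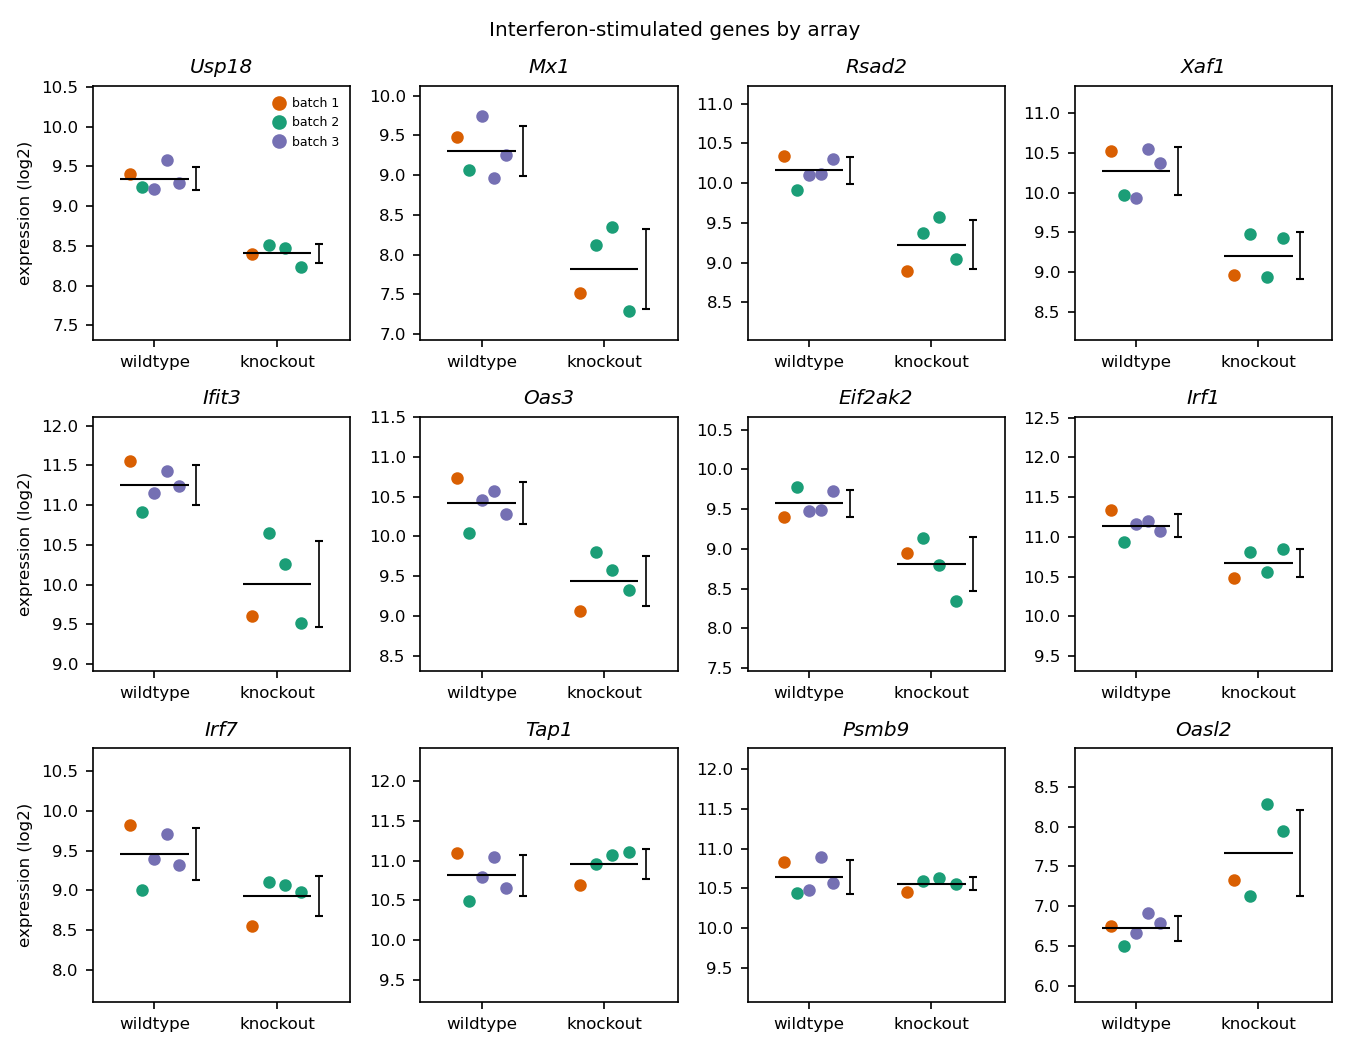
Expression (log2, vertical axes of equal span) of 12 interferon-stimulated genes on each of 5 wildtype and 4 knockout arrays, coloured by batch, with the mean as a line and the SD as a bar beside it. In Usp18, Mx1, Rsad2 and Xaf1 the groups do not overlap, Tap1 and Psmb9 overlap, and Oasl2 is higher on all knockout arrays.

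Among the 14 antiviral effector genes, 12 had a negative difference and 2, Mx1 and Rsad2, fell by the test (median -0.58). Values differed within families, and those differences between genes were not tested. Of the Ifit genes, Ifit3 stood at -1.24 and Ifit1 at -0.57 (adjusted p = 0.276 by limma), whereas Ifit2 read 9.76 ± 0.10 (n = 5) and 9.73 ± 0.18 (n = 4), a difference of -0.01 with a 95% interval from -0.41 to 0.39. The oligoadenylate synthetase genes spread further, from Oas3 at -0.96 through Oas2 at -0.22 and Oasl1 at 0.06 to Oasl2 at 0.9997. Oasl2, an oligoadenylate synthetase-like gene, read 6.75, 6.496, 6.66, 6.91 and 6.79 on the wildtype arrays and 7.32, 7.12, 8.28 and 7.94 on the knockout arrays. All its knockout values lay above all wildtype values, but the difference of 0.9997 did not pass the test (SE 0.32, adjusted p = 0.0781 by limma; 0.57 in batch 1 and 1.29 in batch 2). Without KO2 it did pass. Isg20, an exonuclease gene, had -1.01 (adjusted p = 0.133 by limma), of which batch 1 gave -2.05 and batch 2 -0.31. Samd9l, which restricts poxviruses, had -0.40 (adjusted p = 0.253 by limma).

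Of the 4 factors that carry the interferon signal, 0 passed by limma (1 at an unadjusted p under 0.05). Irf1, a factor induced by both kinds of interferon, read 11.34, 10.94, 11.16, 11.19 and 11.08 on the wildtype arrays and 10.48, 10.81, 10.56 and 10.84 on the knockout arrays (log2 difference -0.47, SE 0.19, adjusted p = 0.138 by limma). Its groups did not overlap, though the lowest wildtype array (10.94) lay close above the highest knockout array (10.84). Irf7, the factor that amplifies type I interferon production, read 9.82, 9.01, 9.39, 9.71 and 9.32 on the wildtype arrays and 8.55, 9.11, 9.06 and 8.98 on the knockout arrays. WT2 lay within the knockout range, and the difference was -0.48 (SE 0.28, adjusted p = 0.267 by limma), with -1.27 in batch 1 and 0.04 in batch 2. Without WT2 only batch 1 gives the difference, which is then its -1.27, from 1 array against 1. Irf9 and Stat2 encode parts of the complex that binds the response element. Irf9 had -0.16 (adjusted p = 0.651 by limma) and Stat2 had 0.38 (adjusted p = 0.186 by limma), values of opposite sign, neither of them past the test.

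The nucleic acid sensors all had negative differences, with a median of -0.42 over 5 genes, and 0 passed by limma (1 at an unadjusted p under 0.05). Eif2ak2, which encodes the double-stranded RNA-activated kinase PKR, read 9.40, 9.78, 9.47, 9.49 and 9.73 on the wildtype arrays and 8.95, 9.14, 8.79 and 8.34 on the knockout arrays (log2 difference -0.79, SE 0.25, adjusted p = 0.0739 by limma). It was the only one of the 38 genes whose difference was larger in the negative direction within batch 2 (-1.02) than within batch 1 (-0.45). Ifih1, the RNA sensor MDA5, had -0.42, Ddx60 -0.62, the sensor gene Zbp1 -0.30 and Dhx58, a relative of MDA5, -0.14 (adjusted p 0.231 to 0.795 by limma).

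Of the ISG15 and ADP-ribosylation genes, Usp18 alone passed. Parp9 and Dtx3l, whose proteins form a complex of an ADP-ribosyltransferase-like protein and a ubiquitin ligase, stood at -0.66 (adjusted p = 0.0673 by limma) and -0.17 (adjusted p = 0.489 by limma). Parp14, a further ADP-ribosyltransferase gene, had -0.22 (adjusted p = 0.526 by limma). Herc6, the mouse ligase for ISG15, had -0.01 (adjusted p = 0.981 by limma) on the probe set used, but its 3 other probe sets had -0.62, -0.21 and -0.82. The guanylate-binding protein genes gave no call: Gbp2, a GTPase gene induced mainly by interferon gamma, read 9.59, 9.36, 9.51, 9.63 and 9.37 on the wildtype arrays and 9.20, 9.22, 9.71 and 8.999 on the knockout arrays (-0.19, SE 0.22, adjusted p = 0.59 by limma). This sign turned when all probe sets of the gene were averaged (0.14). Gbp3 had 0.02 (adjusted p = 0.979 by limma).

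The 3 antigen processing genes of the set lay close to wildtype in the fit over both batches. Tap1, a subunit of the peptide transporter, read 11.10, 10.49, 10.80, 11.04 and 10.65 on the wildtype arrays and 10.69, 10.96, 11.08 and 11.11 on the knockout arrays, so that the groups overlapped over most of their range. Its difference was 0.17 with a 95% interval from -0.35 to 0.70, and it turned to -0.03 when all probe sets were averaged. Without WT2, where batch 1 alone gives the difference, it was -0.41. Psmb8 and Psmb9, the inducible subunits of the immunoproteasome, had -0.09 (95% interval -0.50 to 0.31) and -0.06 (-0.50 to 0.37). These 3 intervals hold no 2-fold change in either direction. Among antigen processing genes outside the set, Psmb10 (-0.43), Nlrc5 (-0.39), Psme1 (-0.32), B2m (-0.31) and Tapbp (-0.31) had negative differences and Tap2 a positive one (0.37). None of these was called (adjusted p 0.204 to 0.318 by limma). In Psme1, B2m and Tapbp all knockout arrays lay below all wildtype arrays, an order that 12.7% of all genes tested had. In Psmb10, Nlrc5 and Tap2 the groups overlapped. Of the remaining genes of the set, Rtp4, a receptor transporter gene, had -0.38, Ifi35, which encodes an interferon-induced leucine zipper protein, -0.33 and Lgals3bp, which encodes a secreted galectin-binding protein, 0.03 (adjusted p 0.338 to 0.958 by limma). Over the set, 19 of the 34 genes without a call had a 95% interval that excluded a 2-fold fall.

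The promoters were searched for the elements through which interferon acts. RefSeq promoter sequences of 300 bases (GRCm38.p6) were at hand for 31 of the 40 listed genes, and Usp18 and Mx1 were not among them. The core of the interferon-stimulated response element, taken as GAAA, any 2 bases and GAAA again, on either strand, was found in the promoters of 13 of these 31 genes (41.9%) and of 3.99% of all 27025 genes in the table. The core of the gamma-activated site, TTCNNNGAA, which reads the same on both strands, was found in 7 of 31 (22.6%) and in 9.55% of all genes. The genes were listed as interferon-stimulated, so larger shares than over all genes follow from the choice of the list. Of the 8 genes with a promoter whose knockout arrays all lay below wildtype, 6 held the first core (Ifit3, Oas3, Rsad2, Trim30a, Bst2 and Eif2ak2), and so did 6 of the 21 other measured genes. Stretches of 60 bases around the match are printed for 5 of these 6, 5′ to 3′ on the strand of the gene, since they hold the element the genes share. Gbp2 and Stat2 follow as genes with the same core that were not called lower and whose groups overlapped. Capitals mark the match, which appears as TTTC, any 2 bases and TTTC where it lies on the opposite strand.
Rsad2, chr12:26456538-26456597, minus strand: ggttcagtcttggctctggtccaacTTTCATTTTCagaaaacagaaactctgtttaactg
Ifit3, chr19:34583382-34583441, plus strand: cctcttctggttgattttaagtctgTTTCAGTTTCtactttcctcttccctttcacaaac
Oas3, chr5:120777700-120777759, minus strand: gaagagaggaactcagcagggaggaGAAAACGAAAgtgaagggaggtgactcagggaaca
Trim30a, chr7:104465195-104465254, minus strand: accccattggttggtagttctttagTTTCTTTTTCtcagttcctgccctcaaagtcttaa
Bst2, chr8:71537562-71537621, minus strand: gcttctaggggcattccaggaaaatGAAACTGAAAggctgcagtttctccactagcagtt
Gbp2, chr3:142620579-142620638, plus strand: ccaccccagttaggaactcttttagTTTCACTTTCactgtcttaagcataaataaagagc
Stat2, chr10:128270251-128270310, plus strand: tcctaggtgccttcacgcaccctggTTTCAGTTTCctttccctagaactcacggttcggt

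The printed matches lie before the annotated start, at -120 in Rsad2, -122 in Ifit3, -75 in Oas3, -36 in Trim30a, -124 in Bst2, -59 in Gbp2 and -222 in Stat2. The match of Eif2ak2, which is not printed, lies after the start, at 18. Another promoter of Trim30a has its match at 2, also after the start, and Ifit3 has a further match at -156. Bst2 has a second, overlapping match at -130, and a TTCNNNGAA match at -136 overlaps that. Bst2 and Eif2ak2 were the 2 genes with both cores. Xaf1, which fell, held neither, and 13 of the 31 genes held neither within this window. A match is a run of letters and does not show that a factor binds there.

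Of the 38 genes, 17 had further probe sets that were not used above. There were 25 of these, of which 21 had a negative difference (median -0.39) and 21 had the sign of the probe set used. In a fit over all probe sets of the array, where 2.66% of probe sets were called lower, 3 of these 25 passed and all 3 were lower. They belonged to Cmpk2 (-0.94, adjusted p = 0.014 by limma), Herc6 (-0.82, adjusted p = 0.0437 by limma) and Trim30a (-1.01, adjusted p = 0.0488 by limma). In each of these genes the probe set of highest level did not pass, so the choice of probe set decided their call. Of the probe sets used above, 2 passed in this fit, those of Usp18 and Mx1 (adjusted p = 0.0255 and 0.047 by limma). Those of Rsad2 and Xaf1 did not pass in it (adjusted p = 0.053 and 0.0599 by limma).

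The batches are given side by side. In batch 1, KO1 minus WT1, 36 of the 38 genes (94.7%) were lower, with a median of -0.86, where 50.8% of all genes tested were lower and their median was -0.01. In batch 2, KO2 to KO4 minus WT2, 20 of 38 (52.6%) were lower, with a median of -0.05, where 36.6% of all genes were lower and their median was 0.19. All 20 of these were lower in both batches, 2 genes (Oasl2 and Stat2) were higher in both, and 16 were lower in batch 1 and higher in batch 2. Usp18 moved least between the batches among the 4 called genes. Batch 1 has 1 array of each genotype and no replicate check.

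**Figure D3:**
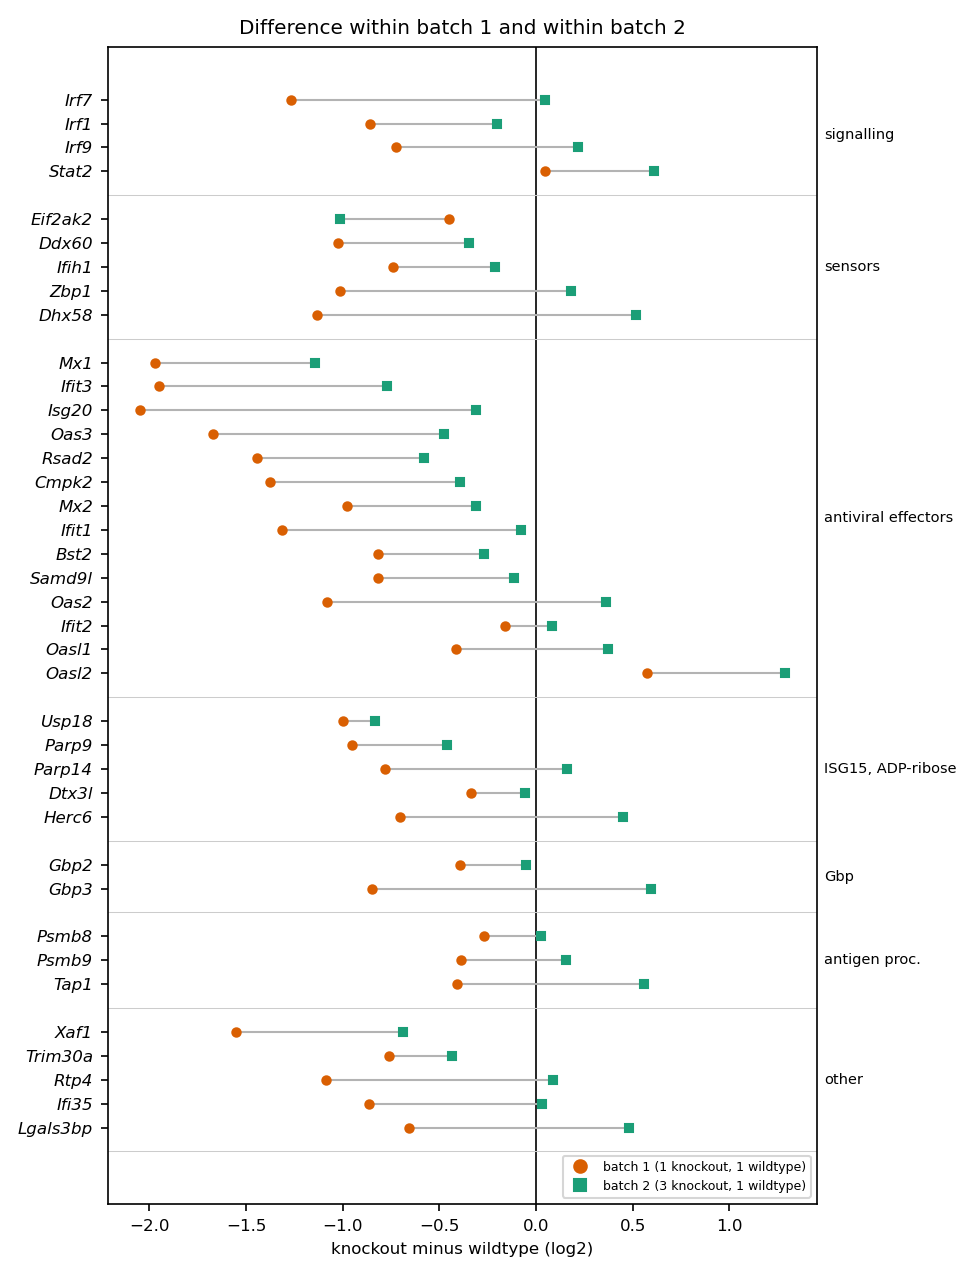
Knockout minus wildtype difference (log2, horizontal axis) of each gene within batch 1 (orange circles, 1 array against 1) and batch 2 (green squares, 3 arrays against 1), grouped by role. In 37 of the 38 genes the batch 2 value lies to the right of the batch 1 value, the exception being Eif2ak2.

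A term for the difference between the batches was fitted for each gene. It was called for 0 of the 38 genes by limma (smallest adjusted p = 0.204, for Dhx58), where 0.0207% of all genes tested were called. At an unadjusted p under 0.05 it was 14 of 38 genes, against 13.3% of all genes tested. The term was positive in 37 of 38 genes and in 63.3% of all genes. As shown above, WT1, WT2 and KO1 carry a shared deviation, and in 37 of 38 genes WT1 lay above, WT2 below and KO1 below the mean of its genotype. Over all genes tested, 62.3% had WT1 above and WT2 below the wildtype mean. WT2 was the lowest wildtype array for 27 genes (71.1%), where it was lowest for 32.8% of all genes tested. The within-batch values of the set are thus a single contrast read in many genes and not 38 separate observations.

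By array, the median gene of the set deviated from its wildtype mean by 0.21, -0.26, -0.04, 0.13 and -0.04 in WT1 to WT5 and by -0.63, -0.33, -0.12 and -0.36 in KO1 to KO4. KO3 lay inside the wildtype range and the other knockout arrays lay below it, KO2 by a small margin. For all genes tested these medians ran from -0.07 to 0.06 in wildtype and from 0.05 to 0.16 in knockout samples.

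**Figure D4:**
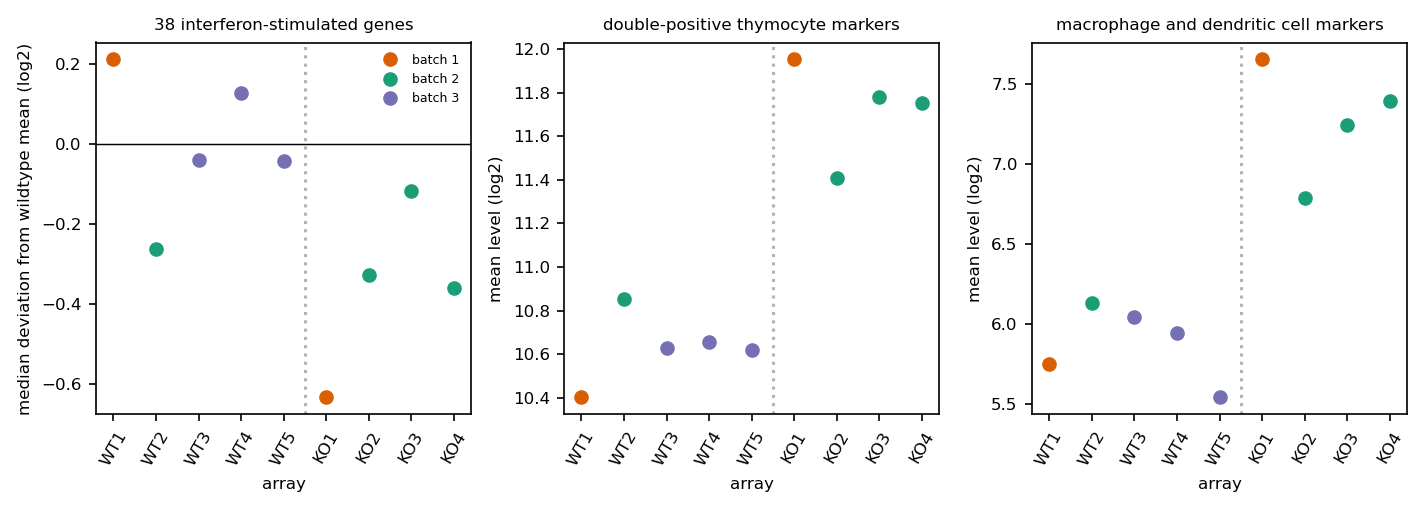
Median deviation of the 38 interferon-stimulated genes from their wildtype mean (left, log2) and mean level (log2) of markers of double-positive thymocytes (middle) and of macrophages and dendritic cells (right), on each array, coloured by batch. KO1 is lowest on the left (-0.63) and highest in the middle (11.95) and on the right (7.65).

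Markers of other cells moved on the same arrays. All 13 double-positive thymocyte markers had a positive difference and 8 rose (median 0.98), with a mean level of 10.40 to 10.85 in wildtype and 11.41 to 11.95 in knockout samples and a summed level of 135.2 to 141.1 and 148.3 to 155.4. Of 12 macrophage and dendritic cell markers tested, 4 rose and 0 fell (median 1.23), with summed levels of 66.5 to 73.5 and 81.4 to 91.8, while Cd14 and Itgam lay under the filter level. Of 9 markers of plasmacytoid dendritic cells, the main source of type I interferon, 2 rose, Tcf4 and Ly6d, and 0 fell (median 0.10, summed levels 72.4 to 74.5 and 75.2 to 78.1). Siglech, the defining one, had -0.14. This list shares Bst2 (-0.49) with the interferon-stimulated set and Ccr9 with the double-positive thymocyte markers. B cell markers had summed levels of 48.6 to 51.6 and 54.5 to 60.9 (3 of 7 rose), neutrophil markers 28.4 to 39.4 and 30.8 to 46.7 (0 of 6 called, 1 higher at an unadjusted p under 0.05), and thymic epithelial markers 27.2 to 28.2 and 27.8 to 28.3 (0 of 5 called, 0 at an unadjusted p under 0.05), with Elane, Mpo, Krt14 and Psmb11 under the filter level. Among iNKT cell markers, Tbx21, Il2rb and Cd44 fell. The part of these other cells in the levels of the interferon-stimulated genes was not tested. In such bulk samples fewer cells of a type and less RNA per cell cannot be told apart.

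The rest of the interferon pathway was read from a list of 115 further genes, of which 90 were tested. Of these, 9 fell and 2 rose, and 60 (66.7%) had a negative difference (median -0.28). Over all genes tested 3.37% fell, 7.88% rose and 40.7% had a negative difference, and the 11 calls among 90 genes lie near the 11.3% called in all. Among 3 ligand genes above the filter level, Ifng fell from 10.46 ± 0.17 (n = 5) to 8.27 ± 1.03 (n = 4), with 7.95, 8.93, 6.98 and 9.24 in KO1 to KO4 (log2 difference -2.22, SE 0.57, adjusted p = 0.0418 by limma). The Ifng call ended when KO1 or any single wildtype array was left out, with differences of -2.74 to -1.88 (adjusted p 0.0665 to 0.13 by limma). Ifna1 and Ifna5 were not called, and Ifnb1 lay under the filter level.

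Of the receptor chains, 1 passed the test. Ifnar1 and Ifnar2, the chains of the type I receptor, had differences of 0.07 (95% interval -0.31 to 0.45) and 0.31 (-0.18 to 0.80). The sign of Ifnar1 turned to -0.19 under another quantile normalization and to -0.81 with its probe set of largest variance. Ifngr1, the ligand-binding chain for interferon gamma, had 0.13 (-0.40 to 0.67), which turned to -0.05 under that normalization. Ifngr2, the signalling chain, had a wildtype mean of 6.28 ± 0.05 (n = 5) and a knockout mean of 7.13 ± 0.25 (n = 4). This rise of 1.81-fold (0.85 on the log2 scale, SE 0.19, adjusted p = 0.0279 by limma) was a call that 7 of the 9 fits without 1 array did not keep (all but those without WT4 or KO2; 0.78 to 0.87, adjusted p 0.0532 to 0.196 by limma). Ptpn6, the phosphatase SHP-1 that damps cytokine receptors, fell by 0.91 on the log2 scale (SE 0.17, adjusted p = 0.0156 by limma), and this ended without WT1, WT2 or KO1 (adjusted p 0.0516 to 0.0694 by limma).

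Of the other interferon-induced genes, 5 of 53 fell and 0 rose (median -0.32; 12, or 22.6%, lower and 1 higher at an unadjusted p under 0.05, where 10.7% of all genes tested were lower). Epsti1, known from epithelial and stromal interaction, read 9.99 to 10.06 in wildtype and 8.63, 9.05, 8.45 and 8.46 in KO1 to KO4. It fell 2.57-fold (log2 difference -1.36, SE 0.20, adjusted p = 0.0073 by limma) and passed in all 9 fits without 1 array. Irgm2, an immunity-related GTPase gene, read 10.41 to 10.73 and 9.19, 9.71, 9.18 and 9.09, a fall of 2.39-fold (-1.25, SE 0.22, adjusted p = 0.0123 by limma) that also passed in all 9. None of the 4 called genes of the set passed in all 9. Ifitm1, which blocks virus entry, fell by 1.12 and Slfn5, of the schlafen family, by 1.04 on the log2 scale (adjusted p 0.0156 to 0.016 by limma), and both calls ended without WT2 (adjusted p 0.0757 to 0.101 by limma). The fifth was Ifi204, of the DNA-binding p200 family, at -0.94 (adjusted p = 0.0437 by limma). Among 16 sensors and adaptors of nucleic acid signalling, 8 had a negative and 8 a positive difference (median -0.12). Sting1, the adaptor of cytosolic DNA sensing, fell with a log2 difference of -1.25 (adjusted p = 0.0426 by limma). Tlr3, the endosomal receptor for double-stranded RNA, fell with -1.01 (adjusted p = 0.0288 by limma). Rnaseh2b, a subunit of ribonuclease H2, rose by 0.84 (adjusted p = 0.0403 by limma). For Ifi204, Sting1, Tlr3 and Rnaseh2b the effect of leaving out an array was not examined.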

How the data were processed

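The authors deposited a log2 level for each probe set on each array. RMA, which corrects background, normalizes by quantiles and summarises probes, is the tool named per the submitters' processing notes (no version). Per the labels' protocols, the RNA was amplified before biotin labelling. Amplification and RMA can compress differences.

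Of 45101 probe sets, 34945 had 1 gene in the platform annotation and 932 several. The filter kept genes whose mean lay above the 25th percentile of probe set means (4.54, log2). limma 3.58.1 (R 4.3.3) was fitted to all 9 arrays with genotype and batch as factors, eBayes, two-sided tests and Benjamini-Hochberg adjustment over all 14524 genes at 0.05. There were 5 residual and 3.5 prior degrees of freedom. Only batches 1 and 2 hold both genotypes and give the difference, and batch 3 informs the spread. If batch means were removed additively before deposit, this fit gives the same differences and errors, whereas fits without batch count the removed means as free. The fit was tested on simulated data with independent noise, which lack the deviations shared between arrays. That test therefore does not cover values of the form seen here. No 2 arrays were duplicates (smallest SD of a difference 0.305). Alternatives covered the batch term, pairing, filter, scaling, probe set, eBayes, weights, thresholds and single arrays.

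The members and lists were chosen with earlier results of these data known. By rule, values by array are given for called genes, for the gene of smallest p and of largest difference in each role group, and for genes whose probe sets disagree in sign at p under 0.05, and the pathway genes named are the 6 called ones of smallest p and a short list of receptors and ligands. Promoter sequences are RefSeq's (GRCm38.p6). The other genes were named after their values were seen. A pathway gene named by that rule is not reported here. Replicate numbers were not taken as pairs, as the titles do not say that they pair the samples. Same-numbered arrays correlated at -0.922, 0.0851, 0.0228 and 0.152 in their deviations from group means. These values cannot test a pairing, since WT1, WT2 and KO1 carry a shared deviation.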

Additional observations from a re-analysis of the deposited data

Results flagged for a closer look

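Of 78 groups of arrays examined (38 genes and their median deviation, in each genotype), 1 had an array far from the others, where chance flags about 1 in 20. In Cmpk2, KO3 read 7.40 (log2), and the nearest of the other knockout arrays read 6.31.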

How the results depend on the processing

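The number of interferon-stimulated genes called, 4 of 38, was 19 with no batch term, 28 with batch as a random block, 7 after another quantile normalization, 2 with arrays centred on their median, 7 with a trended robust eBayes, 10 at an adjusted p under 0.10 and 2 when a 2-fold change was also asked for. By limma it was 0 on batches 1 and 2 only (11 at an unadjusted p under 0.05) and 0 with array weights (10 at an unadjusted p under 0.05). All genes called were then 6342, 10045, 1789, 1480, 2081, 3033, 1135, 340 and 534, in place of 1634. With 1 array left out the count was 0 to 8. Other pathway genes called, 11 of 90, were 42 with no batch term, 64 with the random block, 1 on batches 1 and 2 only, 2 with array weights, 18 at 0.10, 7 with the 2-fold rule and 5 to 12 with 1 array left out. With the replicate number as a block in place of batch, 13 members, 20 pathway genes and 4290 genes in all were called. The titles share these numbers but do not say that they pair the samples, and a pairing could not be tested. The members' median difference was -0.86 to -0.054 with 1 array left out, and relative to the median of all genes it was -0.61 to -0.43 in the other settings and -0.85 to -0.25 with 1 array left out. The cause of these shifts was not tested.

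Among the 19 named genes run under the alternatives, signs turned for uncalled ones and for 0 of the called ones. With another quantile normalization Ifnar1 had -0.19 and Ifngr1 -0.048. With the mean of all probe sets Gbp2 had 0.14, Tap1 -0.033 and Ifnar1 -0.37, and with the probe set of largest variance Gbp2 had 0.46 and Ifnar1 -0.81. With 1 array left out, Irf7 ran from -1.27 to 0.044, Ifngr1 from -0.040 to 0.40, Tap1 from -0.41 to 0.56, Ifnar1 from -0.10 to 0.18 and Ifnar2 from -0.12 to 0.60. The fits without WT1 and without KO1 are identical, as batch 1 has no other array of either genotype. The fit without WT2 takes its differences from batch 1 alone, 1 array against 1. Whether signal near the filter level is above background was not measured.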
